A study of Homo sapiens with 6 samples.

Results

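The respiratory chain subunits that are encoded in the nucleus were compared between parental DLD1 cells and a DLD1 p85β K477A/R478A mutant, called p85β KR-AA cells below. Members were the protein-coding genes whose GENCODE symbols belong to the NDUFA, NDUFB, NDUFC, NDUFS and NDUFV series, NDUFAB1, the SDHA to SDHD genes, the UQCR series, the COX4 to COX8 series and the ATP5F1, ATP5M and ATP5P series. Assembly factors were not included. The rule used names alone and no measured value, and it found 87 of the 58884 genes in the count table. By complex these were 37 genes of complex I, 4 of complex II, 9 of complex III, 18 of complex IV and 19 of complex V. NDUFA4 carries a complex I name but was placed with complex IV, where its protein is now assigned.

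RNA-seq was made of 3 parental libraries and 3 p85β KR-AA libraries. DLD1 is a human colorectal adenocarcinoma line, and both groups carry its helical-domain mutation of PIK3CA, which encodes the catalytic p110α subunit of PI3K. The mutant cells carry in addition a genome-edited K477A and R478A substitution in p85β, a regulatory PI3K subunit encoded by PIK3R2, made to stop its entry into the nucleus. The study describes more than 1 mutant clone, and the labels do not say which clone or how many cultures gave the 3 libraries, so p-values measure the spread between these libraries only. A difference between clones, or in the background of the cells, and an effect of the substitution cannot be told apart here.

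Respiratory complexes sit in the inner mitochondrial membrane. Complex I (NADH dehydrogenase) and complex II (succinate dehydrogenase) pass electrons to ubiquinone, complex III (the cytochrome bc1 complex) passes them on to cytochrome c, and complex IV (cytochrome c oxidase) passes them to oxygen. Complex V (ATP synthase) uses the proton gradient so built to make ATP. Complexes I, III, IV and V join nuclear-encoded subunits, imported as proteins, with core subunits encoded by mitochondrial DNA, while complex II is wholly nuclear-encoded. In colon epithelium, as in most tissues, these genes are transcribed in all cells, and several of them have copies of other tissues, such as the heart, muscle and testis forms of complex IV subunits.

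The members differed widely in base composition, and the lowest and highest members of complex I and the core pair of complex III lay far apart in it. The first 120 coding bases of 4 of these genes are therefore shown, with G and C in capitals, read from the GRCh37 sequence along the GENCODE release 44 transcripts. UQCRC1 and UQCRC2 encode the core proteins of complex III, NDUFB7 a small accessory subunit of complex I and NDUFS1 its largest iron-sulfur subunit.
UQCRC1: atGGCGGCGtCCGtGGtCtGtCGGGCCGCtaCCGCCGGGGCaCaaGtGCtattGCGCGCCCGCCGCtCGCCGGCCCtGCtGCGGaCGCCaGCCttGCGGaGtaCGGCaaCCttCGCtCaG
UQCRC2: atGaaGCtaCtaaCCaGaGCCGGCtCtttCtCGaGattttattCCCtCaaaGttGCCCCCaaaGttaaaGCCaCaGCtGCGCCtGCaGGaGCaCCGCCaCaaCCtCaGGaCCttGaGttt
NDUFB7: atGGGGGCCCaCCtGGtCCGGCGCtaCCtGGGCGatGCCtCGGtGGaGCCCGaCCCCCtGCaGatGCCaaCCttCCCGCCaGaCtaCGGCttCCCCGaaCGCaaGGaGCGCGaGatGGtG
NDUFS1: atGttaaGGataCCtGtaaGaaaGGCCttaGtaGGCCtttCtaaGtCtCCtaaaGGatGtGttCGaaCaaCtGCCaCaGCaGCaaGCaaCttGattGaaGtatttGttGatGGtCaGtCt
G and C made up 72.5% of the UQCRC1 stretch, 51.7% of the UQCRC2 stretch, 69.2% of the NDUFB7 stretch and 41.7% of the NDUFS1 stretch. Over all annotated exons the GC content was 58.4% for UQCRC1 (ENSG00000010256, chromosome 3, 48636435 to 48648409, minus strand), 39.5% for UQCRC2 (ENSG00000140740, chromosome 16, 21964609 to 21994981, plus strand), 64.9% for NDUFB7 (ENSG00000099795, chromosome 19, 14676890 to 14682878, minus strand) and 42.1% for NDUFS1 (ENSG00000023228, chromosome 2, 206979541 to 207024233, minus strand). These positions are those of the annotation lifted to GRCh37.

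The promoters of the core pair of complex III are shown as well, from 250 bases before to 50 bases after the start in RefSeq on GRCh38.p14, at chr3:48609597-48609896 (minus strand) and chr16:21953111-21953410 (plus strand). Capitals mark matches, on either strand, to the letters of a GC box (GGGCGG) and of YY1 (AAGATGGC) in UQCRC1 and of a TATA box (TATAAA) in UQCRC2.
UQCRC1 promoter: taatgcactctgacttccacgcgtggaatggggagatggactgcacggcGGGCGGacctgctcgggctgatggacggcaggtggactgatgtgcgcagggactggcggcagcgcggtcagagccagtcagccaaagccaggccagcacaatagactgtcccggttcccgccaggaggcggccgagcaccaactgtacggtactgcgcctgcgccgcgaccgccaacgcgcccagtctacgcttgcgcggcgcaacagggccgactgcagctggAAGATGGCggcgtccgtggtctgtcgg
UQCRC2 promoter: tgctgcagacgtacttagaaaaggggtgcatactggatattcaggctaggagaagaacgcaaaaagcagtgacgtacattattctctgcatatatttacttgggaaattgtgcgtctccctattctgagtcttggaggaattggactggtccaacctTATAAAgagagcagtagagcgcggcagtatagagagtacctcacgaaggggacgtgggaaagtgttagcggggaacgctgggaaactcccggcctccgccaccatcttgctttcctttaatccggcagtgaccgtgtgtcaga
The RefSeq table held a promoter for 69 of the 87 members and 66 of the 80 tested ones. The core letters of NRF1 (GCATGCG) were found, on either strand, in 19.7% of these 66 promoters and in 3.91% of all 35116 promoters of this length. ETS letters (CCGGAAG), the core read by GABPA, stood in 30.3% against 10.3%, and YY1 letters in 16.7% against 2.89%. GC box letters stood in 62.1% against 45% and TATA letters in 9.09% against 11.5%. The members entered with a single promoter per gene and are all protein-coding and tested. The 35116 promoters were not limited in these ways, so the sets are unlike. A match describes the letters only.

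The libraries held between 20301396 and 26712816 estimated counts, and 3 counts were worth 0.185 to 0.218 CPM (a count over the TMM-scaled library total, multiplied by the same constant in every library) in parental libraries and 0.0818 to 0.109 CPM in the mutant ones. Such floors cover counting error only. TMM factors were 0.677 to 0.777 for parental libraries and 1.35 to 1.41 for mutant ones, and with library totals in their place the median log2 fold change of all 16059 genes tested moved up by 0.92. PIK3R2 itself had a log2 fold change of -0.93 ± 0.42 (SE, edgeR adjusted p = 0.056) with overlapping groups, and gene counts do not show whether its transcripts carry the substitution. All 12 colonic epithelium markers had counts in both groups, though CDX1 had at most 3 in any library. Their summed level was 57354 to 79387 CPM in parental and 8862 to 10361 CPM in mutant libraries, most of it from KRT8, KRT18 and KRT19. Of the 11 tested, 6 were down-regulated and 2 up-regulated, CDH1 (log2 fold change 1.82) and CEACAM5 (5.66). Mesenchymal markers (14 genes) summed to 28.5 to 30.9 CPM in parental and 6331 to 7243 CPM in mutant libraries. Most of the mutant sum came from FN1 (mean 4992 CPM) and VIM (mean 1772 CPM). Of the 10 tested, 6 were up-regulated and 1 down-regulated, TAGLN (log2 fold change -3.14). Among the mesenchymal markers, DCN, PDGFRA, LUM and COL3A1 were at 0 in all parental and PDGFRA and COL1A2 at 0 in all mutant libraries. The Y-linked gene RPS4Y1 had a log2 fold change of 14.97 ± 0.36 (SE, edgeR adjusted p = 3.1e-10). Whether both groups share the same cell background was not tested. The part of these shifts in the subunit results was not tested either, and in bulk RNA fewer cells of a type and less RNA per cell cannot be told apart.

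Most of the subunit RNAs were lower in p85β KR-AA cells. Of the 80 members that passed the filter on low counts, 39 were down-regulated and 1, UQCRC2, was up-regulated, at the study's thresholds of 3-fold and an adjusted p under 0.01 (edgeR's quasi-likelihood test, adjusted over all genes tested). Over all genes tested 28.6% were up-regulated and 17.6% down-regulated. At any fold and an adjusted p under 0.01, 66 members were lower and 7 were higher, against 32.7% and 41.6% of all genes tested. The median log2 fold change was -1.51 for the members and 0.32 for all genes tested, a gap of -1.83. Over the 13756 protein-coding genes tested, 28.2% were up-regulated, 18.2% down-regulated, 42.1% higher and 34.4% lower at any fold. All mutant libraries lay below all parental ones for 68 members and above them for 8, where the shares over all genes were 36.5% and 47% and over protein-coding genes 38% and 46.8%. The other 4 overlapped. Without parental replicate 2 no member was up-regulated (0 of 80), and without parental replicate 1, p85β KR-AA replicate 1 or p85β KR-AA replicate 2 only 4 were higher at any fold.

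Scaling and adjustment for gene length and GC content both moved these counts. With library totals, 13 members were down-regulated and 4 up-regulated, beside 973 and 7052 of all genes, and 16 of the 66 lower members had log2 fold changes at or above 0, while the median stayed -1.83 below that of all genes. When each library was given offsets for the length and GC content of genes, 29 members were down-regulated and none up-regulated (0 of 80), against 11.1% and 13.4% of all genes, and the median was -1.08 (all genes -0.09). The 39 down-regulated members were all below 0 under both alternatives, and 18 of them were also down-regulated with the offsets. With offsets for GC content alone, 58 members were down-regulated and 75 lower at any fold, beside 2412 and 5968 of 15902 genes. No member was up-regulated there (0 of 80, beside 2499 of all genes), and the gap to the median of all genes was -1.86.

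**Figure D1:**
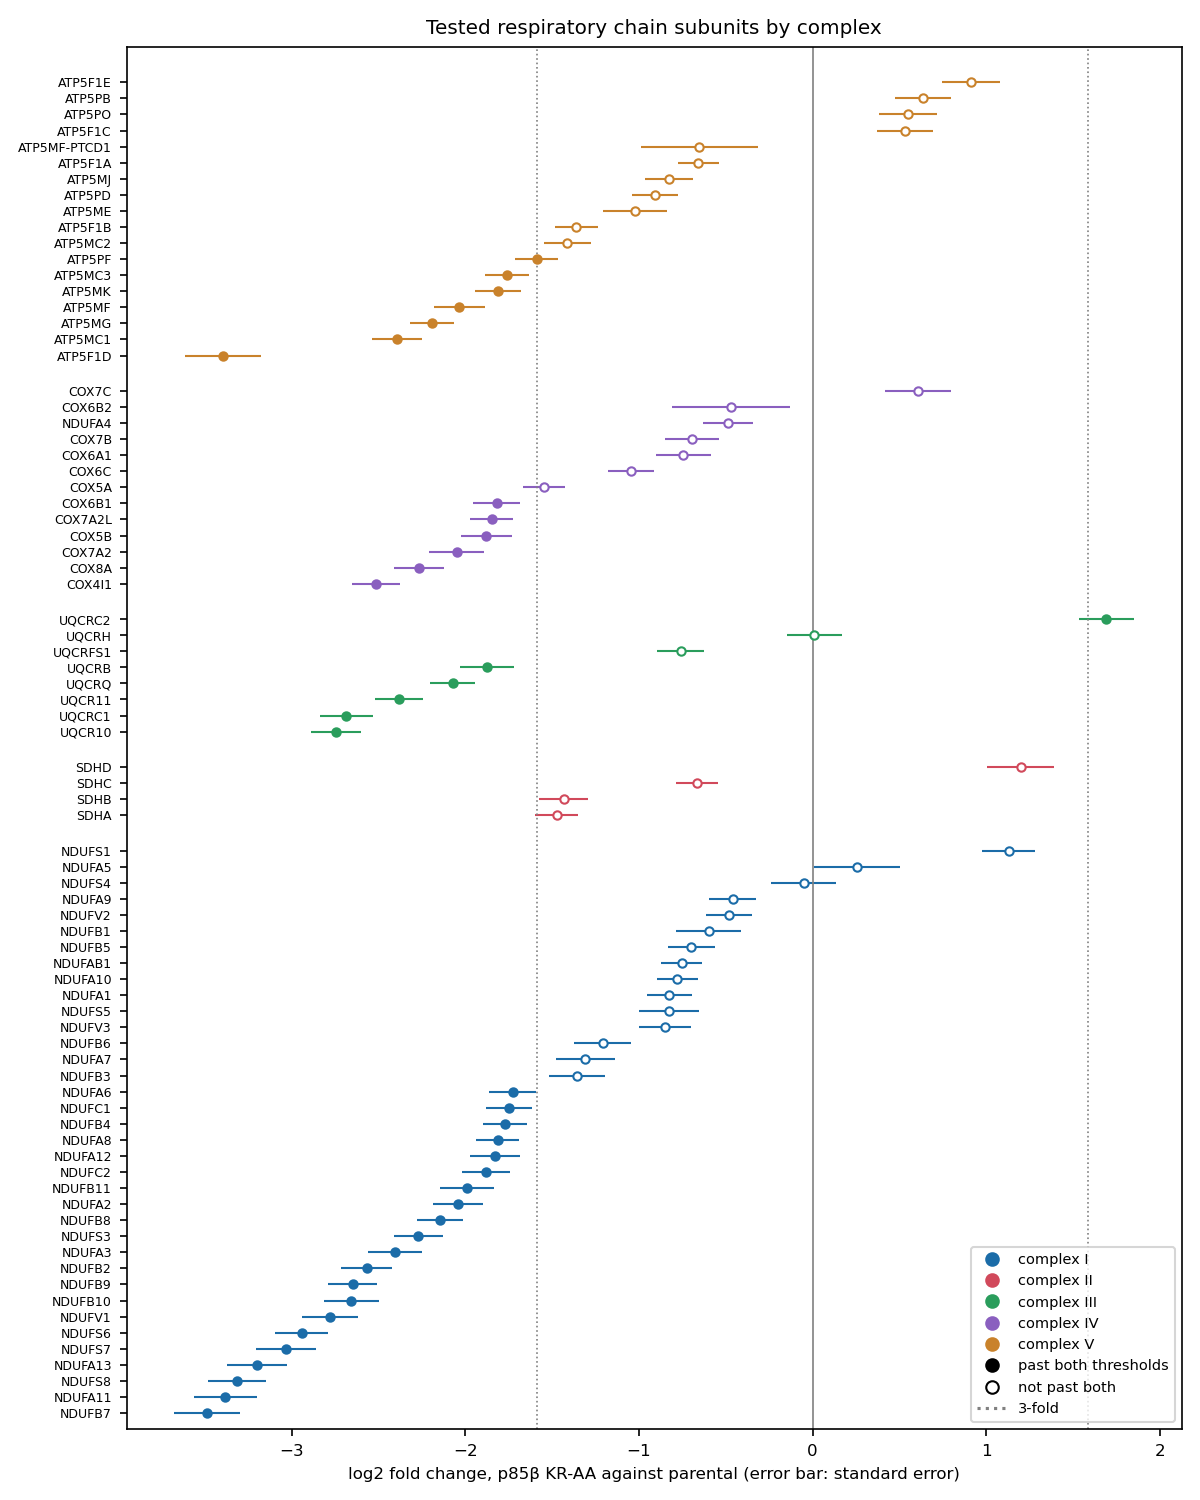
Log2 fold change of p85β KR-AA over parental cells (x axis, TMM scaling, error bars are standard errors) for 79 of the 80 tested subunits, grouped and colored by complex, with filled points for those past both thresholds and dotted lines at 3-fold. In each complex most points lie left of 0, and UQCRC2 is the only filled point on the right, while with library totals 16 of the 66 lower members lie at or above 0.

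The other 7 members had no call of any kind because they were at or near 0. COX4I2, COX6A2, COX7B2, COX8C and ATP5MGL had 0 counts in every library. COX7A1 had 1 count, in p85β KR-AA replicate 3. UQCRHL, a retrocopy of UQCRH, had at most 4.02 estimated counts. COX4I2, COX6A2 and COX7A1 are the forms of lung or of heart and muscle, and COX7B2 and COX8C are forms known from testis. These forms of complex IV subunits were at the floor in both parental and mutant libraries.

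Complex I was lower in p85β KR-AA cells across its parts. Of its 37 members, 21 were down-regulated and none was up-regulated (0 of 37), and 33 were lower and 1 was higher at any fold, with a median log2 fold change of -1.77. Among the 7 core subunits, which bind flavin and the iron-sulfur clusters, 4 were down-regulated and the median was -2.27. Among the 30 accessory subunits, 17 were down-regulated and the median was -1.76. Under these offsets 1 core and 12 accessory subunits were down-regulated, with medians of -1.11 and -1.08.

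NDUFB7, an accessory subunit that faces the intermembrane space, was the lowest of complex I. Its level was 396, 551 and 339.7 CPM in parental and 39.0, 33.9 and 41.9 CPM in p85β KR-AA libraries. The highest mutant library was thus far below the lowest parental one. NDUFB7 fell by 3.49 ± 0.19 on the log2 scale (SE, edgeR adjusted p = 7.9e-09), or 11.2-fold. With the length and GC offsets its log2 fold change was -1.09, which is not past 3-fold.

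The subunits that take up electrons from NADH had unlike changes. NDUFV1, which binds NADH and flavin, was at 701, 839 and 573 CPM in parental and at 96.0, 97.9 and 114 CPM in mutant libraries, and fell by 2.78 ± 0.16 (SE, edgeR adjusted p = 1.1e-08). NDUFV2, its iron-sulfur partner in the same arm, was at 75.6, 96.4 and 86.3 CPM in parental and at 62.7, 63.8 and 58.3 CPM in mutant libraries. That gave a log2 fold change of -0.48 ± 0.13 (SE, edgeR adjusted p = 0.0048), which was 0.45 with library totals, so its direction rests on the scaling, and it was not past the adjusted p limit without any 1 of the p85β KR-AA replicates. NDUFS1, which carries clusters next in line, was at 33.9, 46.3 and 47.5 CPM in parental and at 94.6, 97.2 and 87.6 CPM in mutant libraries. All mutant libraries lay above all parental ones. NDUFS1 was higher by 1.13 ± 0.15 on the log2 scale (SE, edgeR adjusted p = 1.6e-05), or 2.19-fold, and was the only member of complex I higher at any fold, but with the length and GC offsets the value turned to -0.37. Per length, the ratio of NDUFS1 to NDUFV1 in TPM (counts over gene length, scaled to the same sum in each library) was 0.0467 ± 0.014 in parental and 0.689 ± 0.095 in mutant libraries (SD, n = 3), and did not overlap between them. This ratio differed 14.7-fold, and that of NDUFV2 to NDUFV1 differed 4.87-fold. Such ratios need no scaling between libraries but are not adjusted for GC content, and with the length and GC offsets the log2 fold changes were closer, at -0.37 for NDUFS1, -0.68 for NDUFV2 and -1.96 for NDUFV1.

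NDUFS7 and NDUFS8, which carry the last clusters before ubiquinone and were named after their values were seen, had log2 fold changes of -3.03 and -3.32. Under the length and GC offsets these were -0.99 and -1.39, and neither was past 3-fold. NDUFAB1, the mitochondrial acyl carrier protein, was at 88.1, 91.0 and 92.5 CPM in parental and 53.8, 54.4 and 52.9 CPM in mutant libraries. Its groups were clearly apart with a log2 fold change of -0.75, yet with library totals the value was 0.17. NDUFA5 and NDUFS4, named after their values were seen, overlapped between the groups, with log2 fold changes of 0.26 and -0.05.

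Complex II, which links the tricarboxylic acid cycle to the chain, had no member past both thresholds (0 of 4, edgeR), with 3 lower and 1 higher at any fold. Under the length and GC offsets 2 of 4 were down-regulated, SDHA at -1.97 and SDHC at -2.62. SDHA, the flavoprotein that oxidises succinate, was at 532, 497 and 475 CPM in parental and 179.6, 166 and 195 CPM in p85β KR-AA libraries. It fell by 1.47 ± 0.12 on the log2 scale (SE, edgeR adjusted p = 2.2e-07). SDHA shares sequence with 4 annotated copies, which held 4.50% as many counts as SDHA in parental and 31.8% in mutant libraries, so its level is uncertain. SDHB, the iron-sulfur subunit, was at 143 to 191 CPM in parental and at 59.1 to 65.3 CPM in mutant libraries, a log2 fold change of -1.43.

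The membrane anchors of complex II moved apart from each other. SDHC was at 156, 178 and 164 CPM in parental and 105, 100.3 and 108 CPM in mutant libraries, with a log2 fold change of -0.67 that was 0.26 with library totals and -2.62 with the length and GC offsets. SDHD was at 14.5, 20.8 and 24.9 CPM in parental and 48.6, 48.3 and 41.5 CPM in mutant libraries. SDHD was thus low in parental libraries and higher in all mutant ones, by 1.20 ± 0.19 on the log2 scale (SE, edgeR adjusted p = 7.6e-05), and its log2 fold change was 0.85 with the length and GC offsets and -0.03 with GC offsets alone. The TPM ratio of SDHD to SDHA went from 0.0816 ± 0.026 to 0.519 ± 0.082 (SD, n = 3), 6.36-fold.

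Complex III held both the only up-regulated member and some of the lowest ones. Of its 8 tested members, 5 were down-regulated and 1 was up-regulated, and the median log2 fold change was -1.97. UQCRC1 was at 1378, 1571 and 1130.1 CPM in parental and 208, 196 and 229.8 CPM in p85β KR-AA libraries. UQCRC2, which pairs with UQCRC1 in the matrix arm, was at 39.2, 39.3 and 56.2 CPM in parental and 153, 145 and 138 CPM in mutant libraries. In parental libraries the first of this pair was far above the second, and in mutant libraries the levels were closer. UQCRC1 fell by 2.69 ± 0.15 on the log2 scale (SE, edgeR adjusted p = 9.7e-09), and UQCRC2 rose by 1.69 ± 0.16 (SE, edgeR adjusted p = 5.9e-07), or 3.23-fold. Per length, the TPM ratio of UQCRC2 to UQCRC1 was 0.0173, 0.0152 and 0.0303 in parental and 0.450, 0.451 and 0.365 in mutant libraries, a 20.1-fold difference between the means. After the length and GC offsets UQCRC1 was at -1.31, no longer past 3-fold, and UQCRC2 at 0.31, so that the pair lay much closer.

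The UQCRC2 call stood close to its limits. Without parental replicate 2 its log2 fold change was 1.58, just under 3-fold, and it was 1.58 with DESeq2, 0.31 with the length and GC offsets (adjusted p = 0.086) and -0.10 with GC offsets alone. UQCR10, a small accessory subunit, was at 203, 237 and 186 CPM in parental and 34.3, 28.5 and 30.5 CPM in mutant libraries, with a log2 fold change of -2.74, the lowest of complex III, and -2.32 with the length and GC offsets. UQCRFS1, the Rieske iron-sulfur protein, was at 88.0, 100.1 and 113 CPM in parental and 64.0, 56.7 and 57.3 CPM in mutant libraries. Its log2 fold change of -0.76 became 0.16 with library totals and -2.05, down-regulated, with the length and GC offsets. UQCRH, the hinge protein at the cytochrome c1 site, overlapped between the groups at 102 to 151 CPM in parental and 130.2 to 145 CPM in mutant libraries. Its log2 fold change was 0.01 ± 0.16 (SE, edgeR adjusted p = 0.96), a value whose sign changed with DESeq2 (-0.10) and without parental replicate 1 (-0.17).

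In complex IV, 6 of 13 tested members were down-regulated and none was up-regulated (0 of 13), and 11 were lower and none was higher at any fold, with a median log2 fold change of -1.55. COX4I1, the broadly expressed form of the fourth subunit, was at 1306, 1591 and 1273 CPM in parental and 239, 232 and 257 CPM in p85β KR-AA libraries. It fell by 2.52 ± 0.14 on the log2 scale (SE, edgeR adjusted p = 8.0e-09), the lowest value of the complex. COX5A was at 213, 241 and 229 CPM in parental and 80.8, 75.8 and 77.2 CPM in mutant libraries, and its log2 fold change of -1.55 was just inside the 3-fold limit.

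COX7C, a small membrane subunit, was the only complex IV member with all mutant libraries above all parental ones. It was at 60.8, 114 and 97.4 CPM in parental and 145, 138 and 131 CPM in mutant libraries. Its log2 fold change of 0.61 ± 0.19 did not pass the test (SE, edgeR adjusted p = 1.0e-02, just over the limit). It passed at 1.54 with library totals, at 0.66 with no filter, at 0.80 with at least 10 counts in every library and at 0.78 without parental replicate 2. It was 0.38 without parental replicate 1 and -0.25 with the length and GC offsets, and passed in neither. The TPM ratio of COX7C to COX4I1 went from 0.0293 ± 0.0072 to 0.257 ± 0.025 (SD, n = 3), where COX4I1 was at -1.80 with the offsets.

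In the complex IV families with several gene copies that were compared, the main form stayed the same. NDUFA4 and NDUFA4L2, a relative outside the rule, were not compared in this way. NDUFA4 had a mean of 93.7 CPM in parental and 66.9 CPM in mutant libraries, and NDUFA4L2 3.19 and 23.3 CPM. COX4I1, COX6A1, COX7B and COX8A held 100% of the counts of their families in all 6 libraries. COX6B1 held 98.9% to 99.7% of its family, where the rest belonged to COX6B2, a form known from testis, at 0.987 to 1.39 CPM in parental and 0.655 to 0.911 CPM in mutant libraries. COX7A2 held 67.3% to 74.2% of the TPM of its family in parental and 66.5% to 68.5% in mutant libraries, and most of the rest was COX7A2L, which acts in supercomplexes. The log2 fold changes were -2.05 for COX7A2, -1.85 for COX7A2L, -2.27 for COX8A and -1.82 for COX6B1, all past both thresholds. With the length and GC offsets COX7A2 (-2.58) and COX7A2L (-2.71) were still down-regulated, and COX8A (-0.39) and COX6B1 (-0.48) were not. With library totals COX8A was at -1.33 and COX6B1 at -0.89. COX6A1 at -0.74 and COX7B at -0.69 were lower with TMM scaling and at 0.19 and 0.22 with library totals, and COX7B was at -1.90 with the offsets.

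In complex V, 7 of 18 tested members were down-regulated and none was up-regulated (0 of 18), and 13 were lower and 4 higher at any fold, with a median log2 fold change of -1.19. By part of the enzyme, with no test of the difference between parts, counts were as follows. In the F1 head and central stalk, 1 of 5 was down-regulated, 2 were higher at any fold and the median was -0.66. The peripheral stalk, which holds the head still, had 1 of 4 down-regulated and 2 higher, with a median of -0.18. In the c ring, which turns with the protons, 2 of 3 were down-regulated (median -1.76), and of the small membrane subunits 3 of 5 (median -1.81). The medians of the head and of the peripheral stalk were 0.26 and 0.75 with library totals, and with the length and GC offsets the head (-1.02) and the small membrane subunits (-1.07) had similar medians.

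ATP5F1B, the catalytic β subunit, was at 2484, 2623 and 2389 CPM in parental and 947, 915 and 1056 CPM in p85β KR-AA libraries, and fell by 1.36 ± 0.12 on the log2 scale (SE, edgeR adjusted p = 4.3e-07). ATP5F1A, the α subunit that alternates with it, was at 515, 553 and 592 CPM in parental and 360.4, 334 and 358 CPM in mutant libraries. Its log2 fold change was -0.66, 0.26 with library totals and -2.70 with the length and GC offsets. The groups did not overlap for either subunit. Within a library the TPM ratio of ATP5F1B to ATP5F1A was 14.9 ± 1.4 in parental and 9.09 ± 0.54 in mutant libraries (SD, n = 3). With the offsets, however, ATP5F1B, at -1.53, was the less changed of the pair. The level of this ratio and the offset values rest on the deposited gene lengths, 5761 bases for ATP5F1A and 1759 for ATP5F1B.

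The central stalk held the highest and the lowest value of complex V. ATP5F1D, the δ subunit, was at 442, 811 and 475 CPM in parental and 57.1, 51.4 and 55.6 CPM in mutant libraries, and fell by 3.40 ± 0.22 (SE, edgeR adjusted p = 2.2e-08). ATP5F1E, the ε subunit that binds it, was at 35.5, 49.7 and 52.6 CPM in parental and 96.6, 88.2 and 74.3 CPM in mutant libraries. ATP5F1E was thus higher in all mutant libraries, by 0.91 ± 0.17 (SE, edgeR adjusted p = 0.00025), although with the length and GC offsets its log2 fold change was -0.86. Their TPM ratio, ATP5F1E to ATP5F1D, went from 0.0148 ± 0.0044 to 0.279 ± 0.038 (SD, n = 3). With the offsets ATP5F1D was at -1.02, no longer past 3-fold and close to ATP5F1E, so this contrast rests on the fit without them. The other members higher at any fold, named after their values were seen, were ATP5F1C (the γ subunit, 0.53), ATP5PB (0.64) and ATP5PO (0.55), the last a pair of peripheral stalk subunits. With the offsets ATP5F1C was at -0.02, ATP5PB at -0.59 and ATP5PO at 0.48.

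The c subunit has 3 genes that encode the same mature protein. All of them were lower, at a log2 fold change of -2.39 for ATP5MC1, -1.41 for ATP5MC2 and -1.76 for ATP5MC3. The share of ATP5MC1 in the TPM of the family went from 26.3% to 28.4% in parental libraries to 18.3% to 19.2% in mutant ones, while that of ATP5MC2 went from 14.2% to 16.5% to 20.1% to 21.6%. ATP5MC3 gave most of the family in both groups, at 55.8% to 59.5% and 59.2% to 61.1%. With the length and GC offsets the log2 fold changes were -1.71 for ATP5MC1, -1.15 for ATP5MC2 and -2.25 for ATP5MC3, in another order.

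**Figure D2:**
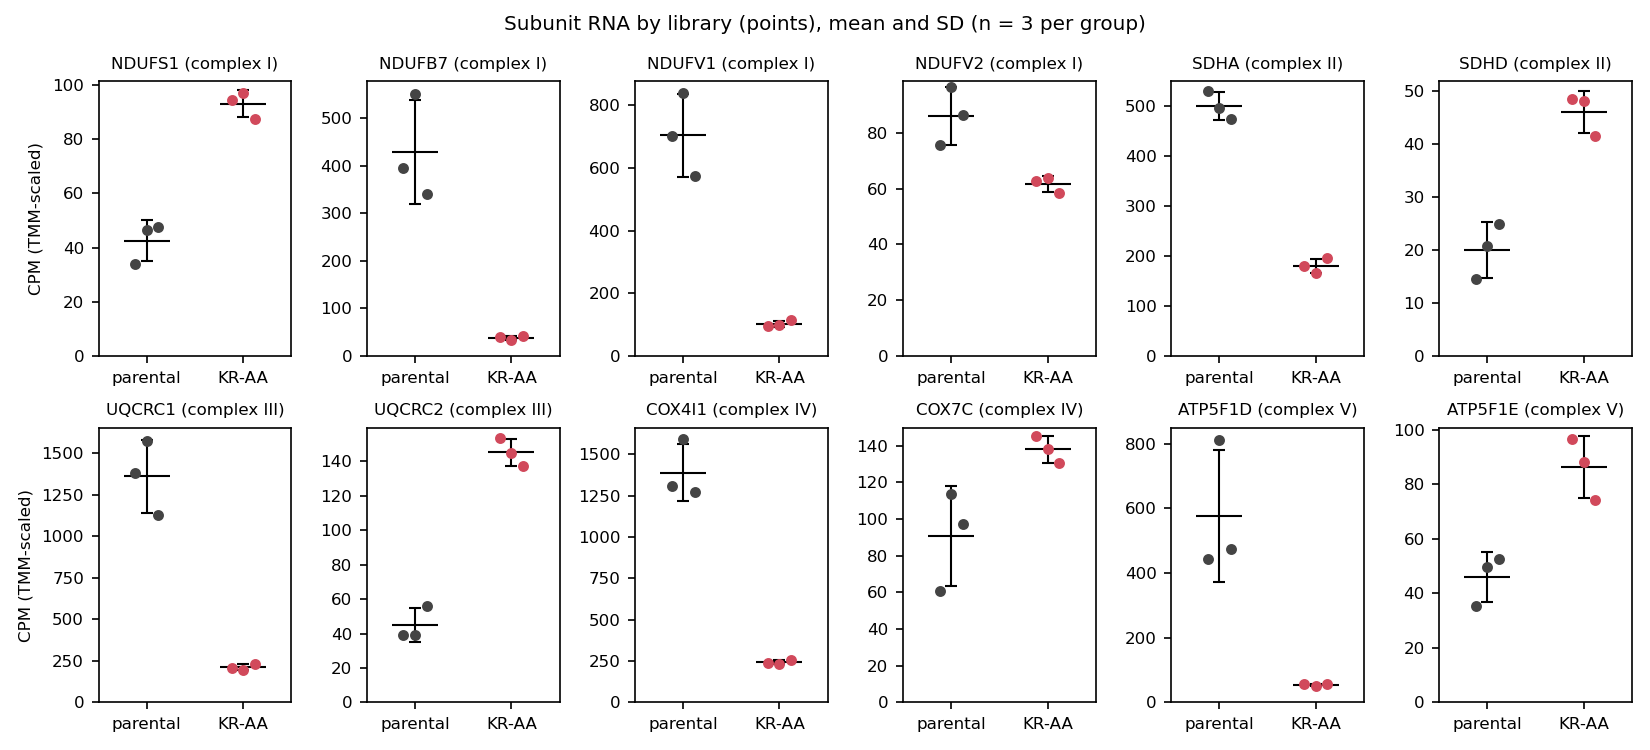
Level in CPM after TMM scaling (y axes from 0, each with its own range) of 12 subunits in the 3 parental (grey) and 3 p85β KR-AA (red) libraries, with a line at the mean and error bars for the SD. NDUFB7, NDUFV1, UQCRC1, COX4I1 and ATP5F1D are lower and NDUFS1, SDHD, UQCRC2, COX7C and ATP5F1E higher in all mutant libraries, where with the length and GC offsets NDUFS1, COX7C and ATP5F1E turn below 0 and with library totals NDUFV2 turns above it.

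The levels of the members of a complex lay closer together in mutant libraries. The SD of log2 TPM over the 37 complex I members was 1.92 to 2.06 in parental and 1.27 to 1.36 in p85β KR-AA libraries. In complex II it was 1.98 to 2.22 against 1.40 to 1.42, in complex III 1.68 to 1.98 against 1.04 to 1.09, in complex IV 2.95 to 2.99 against 2.43 to 2.55 and in complex V 2.31 to 2.48 against 1.70 to 1.92. The mutant libraries had the narrower spread in each complex, with no overlap of the ranges. Members of a complex share libraries and are not replicates, so this is a description. TPM is not adjusted for GC content, and no such spread was computed for all genes or for other lists. Over all genes tested, too, log2 fold change went against the mean level (Spearman -0.35). Whether the narrowing is particular to these complexes was not tested.

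The members together took 1.43%, 1.62% and 1.51% of all counts in parental libraries and 0.907%, 0.889% and 0.892% in p85β KR-AA libraries. The means were 1.52% ± 0.095 and 0.896% ± 0.0098 (SD, n = 3), a ratio of 0.589. The groups did not overlap (exact permutation test, two-sided, p = 0.1, the smallest that 3 against 3 libraries allow). Per length, the members took 2.23% ± 0.097 of all TPM in parental and 1.60% ± 0.024 in mutant libraries (SD, n = 3), a ratio of 0.719. These shares depend on no scaling between libraries, but are not adjusted for GC content. By complex, the mutant share of counts over the parental one was 0.440 for complex I, 0.874 for II, 0.550 for III, 0.590 for IV and 0.758 for V. In TPM the share of complex II went the other way, from 0.0355% ± 0.0021 to 0.0421% ± 0.0010 (SD, n = 3).

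The 13 subunits encoded by mitochondrial DNA, the partners of the nuclear ones, took 2.33% ± 0.17 of counts in parental and 2.45% ± 0.26 in mutant libraries (SD, n = 3), with overlapping groups (exact permutation test, two-sided, p = 0.6). Per length their share was 3.70% ± 0.26 and 4.35% ± 0.39 of TPM (SD, n = 3) without overlap (exact permutation test, two-sided, p = 0.1). Of these 13, 4 were down-regulated (30.8%, against 17.6% of all genes tested) and 0 up-regulated, and MT-ND3 had the lowest log2 fold change at -3.17. In the same fit 9 of them were lower and 1 higher at any fold (69.2% and 7.69%, against 32.7% and 41.6% of all genes tested). Their median log2 fold change was -0.93, and it was -0.01 with library totals and -1.13 with the length and GC offsets. The nuclear-encoded share of counts was thus apart between the groups in the libraries where the mitochondrial one overlapped.

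**Figure D3:**
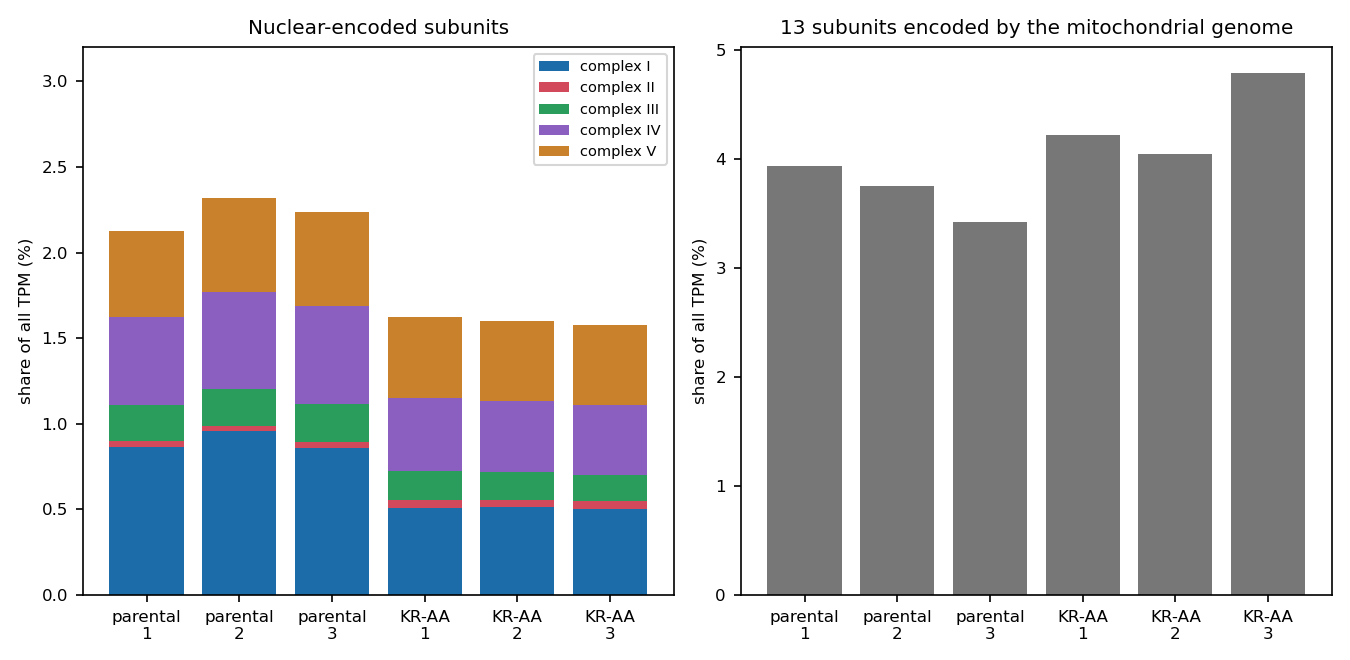
Share of all TPM (y axes in percent, from 0, with different ranges) taken by the nuclear-encoded subunits, stacked by complex (left), and by the 13 subunits of the mitochondrial genome (right) in each library. The nuclear-encoded share is 2.12% to 2.32% in parental libraries against 1.58% to 1.62% in mutant ones, and the mitochondrial share 3.42% to 3.94% against 4.04% to 4.79%.

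The change of a member went with the base composition of its exons. Across the 80 tested members the Spearman correlation of log2 fold change with GC content was -0.58, and it was -0.58 across 15902 genes tested with a known GC content. Within complex I it was -0.73 (37 members). These are correlations across genes of the same 6 libraries, which are not independent. With the length and GC offsets the correlation was 0.27 for the members and -0.04 for all genes. Log2 fold change also went with gene length (0.32 for members, 0.45 for all genes) and against the mean level (-0.63 and -0.35).

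In each class of GC content the members had the lower median. In GC classes chosen after the values were seen, the 30 members with at most 45% GC had a median log2 fold change of -0.70, where the 5692 genes of this class had 1.67. The 35 members between 45% and 55% had -1.59 against 0.19, and the 15 members over 55% had -2.69 against -1.25. In the lowest class 1 member was up-regulated and 9 were down-regulated, beside 2937 and 127 of all its genes. By length, the 47 members of at most 1000 bases had a median of -1.82 against -1.12 for all genes of this class, and the 20 over 2000 bases -0.68 against 0.87. On chromosome 19, 8 of 11 tested members were down-regulated, beside 470 of all 1132 genes tested there. Whether composition has a part in the change of a member was not tested beyond these values.

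**Figure D4:**
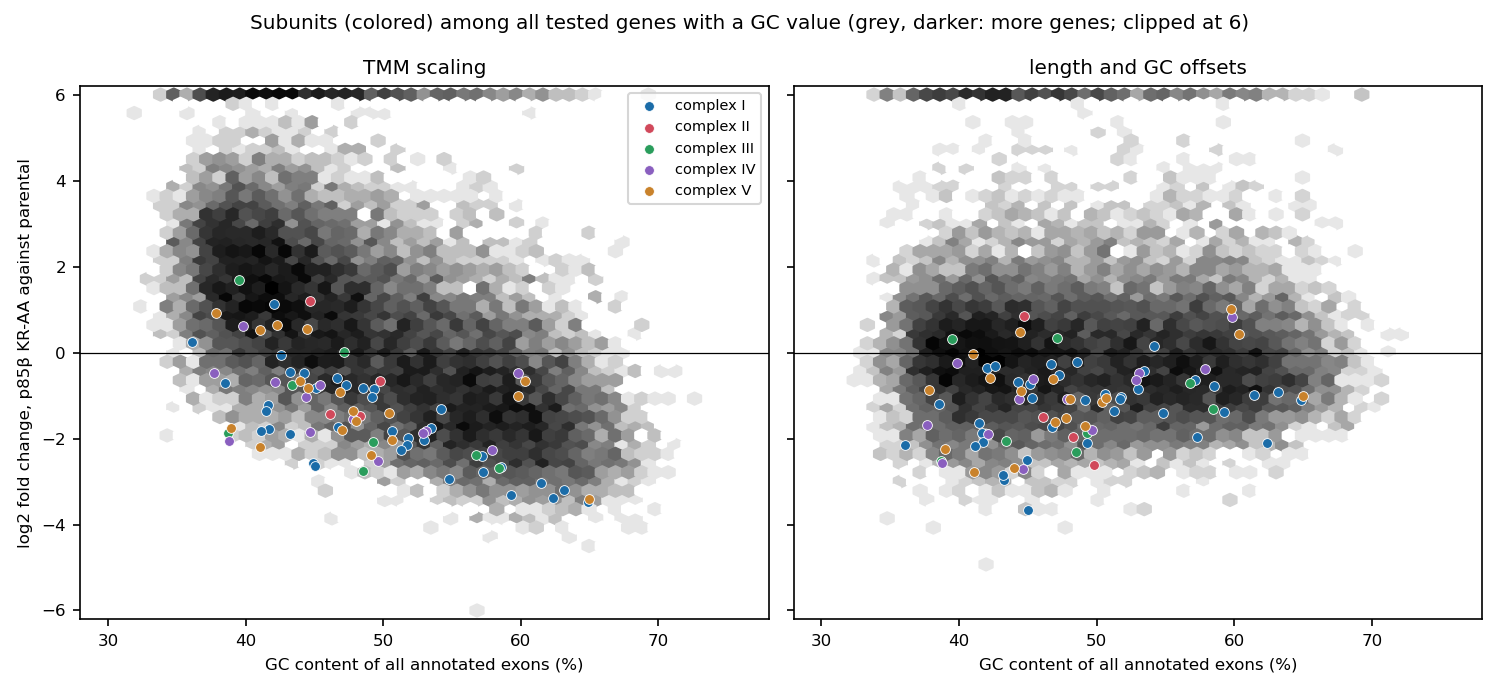
Log2 fold change of p85β KR-AA over parental cells (y axis, clipped at 6) against the GC content of all annotated exons (x axis, percent) for the 80 tested subunits, colored by complex, over all genes tested with a GC value (grey, darker for more genes), with TMM scaling on the left and with length and GC offsets on the right. On the left the values fall with GC content in both sets (Spearman -0.58 for each), and the subunits have the lower median in each GC class. On the right the correlation is 0.27 for the subunits, of the opposite sign, and -0.04 for all genes. The median of the subunits there is -1.08 against -0.09, with NDUFS1, COX7C and ATP5F1E turned from above to below 0.

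The neighbouring genes of the pathway were counted in the same fit, where 17.6% of all genes tested were down-regulated and 28.6% up-regulated. Of 62 assembly factors, 21 were down-regulated (33.9%) and 2 up-regulated (3.23%), with a median log2 fold change of -1.14. At any fold 40 were lower and 5 higher. With the length and GC offsets 23 were down-regulated and none up-regulated (0 of 62), with a median of -1.12. The highest was LRPPRC, which stabilises mitochondrial mRNAs, at a mean of 15.7 CPM in parental and 126 CPM in mutant libraries (log2 fold change 0.41 with the length and GC offsets), and the lowest SCO2, a copper chaperone of complex IV, at -3.78 (-1.47 with the offsets). Among 8 subunits and carriers whose names the rule did not take, 2 were up-regulated (25%) and 3 down-regulated (37.5%). With the offsets 1 was up-regulated and 1 down-regulated. CYC1, the cytochrome c1 of complex III, fell by 3.48 on the log2 scale to a mean of 113 CPM (log2 fold change -1.45 with the offsets), and NDUFA4L2, a relative of NDUFA4, rose by 2.86. Of 14 tricarboxylic acid cycle enzymes 1 was up-regulated, DLD at 1.93 (0.14 with the offsets), and 4 were down-regulated, with IDH3B lowest at -2.17 (-0.95 with the offsets). These are 7.14% and 28.6% of the list, against 28.6% and 17.6% of all genes tested, and with the offsets none was called in either direction (0 of 14).

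Of 14 regulators of mitochondrial biogenesis, which act on genes of the chain, 5 were up-regulated and 2 down-regulated (35.7% and 14.3%, against 28.6% and 17.6% of all genes tested), with a median log2 fold change of 1.02. Under the length and GC offsets 1 was up-regulated and 2 were down-regulated, and the median turned to -0.44. PPARGC1A, which encodes the coactivator PGC-1α, had 0, 3 and 0 counts in parental and 160, 128 and 103 in p85β KR-AA libraries. It was thus near the floor of detection in parental and low but present in mutant libraries. ESRRA, an orphan nuclear receptor that works with it, fell by 2.50 ± 0.14 (SE, edgeR adjusted p = 8.1e-09), the lowest of the list, and was at -1.04 with the offsets.

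Ribosomal protein genes, which also encode large assemblies, were counted in the same way. Of 78 mitochondrial ribosomal protein genes, 32 were down-regulated (41.0%) and none up-regulated (0 of 78), with a median log2 fold change of -1.27. Of 82 tested cytosolic ribosomal protein genes, 34 were down-regulated (41.5%) and 1 up-regulated, with a median of -1.27. Y-linked genes were left out of this cytosolic list, and RPS4Y1, which is Y-linked, was up-regulated with a log2 fold change of 14.97. Over all genes tested 17.6% were down-regulated and 28.6% up-regulated. With the length and GC offsets, 24 mitochondrial ribosomal protein genes were down-regulated and 1 up-regulated (median -0.94). Of the cytosolic ones 18 were down-regulated and 2 up-regulated there (median -0.90). The members had a median of -1.51 with TMM scaling and -1.08 with these offsets, and the difference between the lists was not tested.

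Counts of some members are uncertain. Of the 80 tested members, 43 had an estimated count that was not whole in at least 1 library, which marks reads shared between genes, and 50 of the 87 members have annotated pseudogene copies. The kit named in the labels comes with no stated strand setting. It is thus not known whether reads of genes that overlap on opposite strands were told apart. NDUFA7 overlaps RPS28, which had 21368 mean counts in parental and 7792 in mutant libraries. NDUFS3 overlaps CELF1 on the opposite strand and PTPMT1 on the same strand, with 395 and 1979 mean counts in parental and 2578 and 774 in mutant libraries. ATP5MF-PTCD1 is a readthrough of neighbouring genes, and its groups overlapped with a log2 fold change of -0.65. TPM and the length offsets rest on the deposited gene length, whose fit to the transcripts of these cells was not tested. It was 13566 bases for SDHC, 5761 for ATP5F1A and 3610 for ATP5F1E, where the median of the tested members was 883.5. The transcripts read for the coding bases had 11660 bases for NDUFS1 (deposited 3361) and 1914 for UQCRC2 (deposited 2615). Those of UQCRC1 and NDUFB7 had the deposited length.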

How the data were processed

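RNA-seq of 3 parental and 3 p85β KR-AA libraries was made from total RNA with a TruSeq kit whose strand setting is not stated. The authors trimmed the reads with SeqPrep and Sickle. They deposited 1 table of estimated counts per Ensembl gene with a gene length, not normalized. The submitters' processing notes name HISAT2 2.1.0, RSEM 1.3.1, DESeq2 1.24.0 and the build hg18 without roles, so the annotation behind the estimated counts is not given in the sources used here.

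Symbols, positions and GC content came from GENCODE release 44 lifted to GRCh37, which held 56745 of the 58884 gene IDs. Estimated counts were rounded and fitted in R 4.3.3 by the quasi-likelihood F test of edgeR 4.0.16, with TMM factors and group as the only term. Its filterByExpr kept 16059 genes (count minimum 10, total minimum 15), over which p-values were adjusted by Benjamini-Hochberg. A standard error was the log2 fold change divided by the root of F. Up- and down-regulated genes had a fold change of 3 or more and an adjusted p under 0.01. TPM and the length offsets used the deposited length. Libraries were grouped by genotype in their titles.

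Alternatives were library totals, DESeq2 1.42.0, other filters and thresholds, each library left out, the replicate number as a block, and offsets from a robust spline (5 degrees of freedom, MASS) on log length and GC content in place of TMM. GC offsets alone and robust moderation were added after the data were seen. The fits were tested on simulated data. The members, gene lists and tests were chosen with earlier results of these data known. Named members were the highest and lowest of each complex, those with catalytic or redox roles, gene families with several copies and any up-regulated member, and in other lists the highest and lowest past the thresholds. Others are said to be named later. Of these members, 1 is not reported here by itself.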

Additional observations from a re-analysis of the deposited data

How the results depend on the processing

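With fold changes of at least 2, 3 subunits were up-regulated. With library totals, 4 were up-regulated, 13 down-regulated and 13 higher at any fold, the median log2 fold change was -0.58, and the medians of complexes I to V were -0.84, -0.12, -1.05, -0.62 and -0.26. Signs turned there for NDUFV2 (0.45), NDUFAB1 (0.17), SDHC (0.26), UQCRFS1 (0.16), ATP5F1A (0.26), COX6A1 (0.19), COX6B2 (0.46) and COX7B (0.22), as all genes moved up together by 0.92. With DESeq2, 0 were up-regulated, the median was -1.63, the medians by complex were -1.89, -1.17, -2.09, -1.66 and -1.31, and UQCRH was at -0.10. The gap to the median of all genes was -2.28 with no filter. With at least 10 counts in every library, which left 12693 genes, it was -1.42, the median was -1.31, and the medians by complex were -1.57, -0.85, -1.78, -1.35 and -0.995.

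With length and GC offsets, 0 were up-regulated and 3 higher at any fold, the median was -1.08 (gap -0.99), and the medians by complex were -1.09, -1.74, -1.59, -1.08 and -1.04. NDUFS1 (-0.37), COX7C (-0.25), ATP5F1E (-0.86) and COX6B2 (0.83) turned. With GC offsets alone, 0 were up-regulated and 0 higher at any fold, the median was -1.98, the medians of complexes I, II, IV and V were -1.97, -1.55, -2.25 and -1.96, and NDUFS1 (-0.45), SDHD (-0.030), UQCRC2 (-0.10), UQCRH (-0.81), COX7C (-1.15), ATP5F1E (-0.96) and COX6B2 (0.54) turned. Each set of offsets is fitted over all genes tested and takes out their relation of change to the properties it covers, whatever its cause. Among the members alone the Spearman correlation with GC content was 0.27 under the length and GC offsets, not 0. The cause of the relation was not tested.

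With 1 library left out, 0 to 1 members were up-regulated, 38 to 40 down-regulated, 4 to 7 higher and 63 to 67 lower at any fold. The median was -1.57 to -1.46, the gap -1.93 to -1.77, and the medians by complex -1.87 to -1.74 (I), -1.10 to -0.99 (II), -2.03 to -1.90 (III), -1.60 to -1.52 (IV) and -1.29 to -1.11 (V). UQCRH ranged from -0.17 to 0.080, and was below 0 without parental replicate 1 (-0.17) and without p85β KR-AA replicate 1 (-0.030).

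Deviations from the group mean had correlations of -0.14, 0.12 and -0.045 between same-numbered libraries, which gives no sign of pairing. With 3 libraries per group these values cannot tell whether same-numbered libraries were handled together, and the labels do not say. With the replicate block, 1 was up-regulated, 39 down-regulated, 8 higher and 64 lower, with a median of -1.51. There edgeR's prior degrees of freedom were infinite, and robust moderation gave 65 lower. The replicate block with length and GC offsets gave 0 up-regulated and 3 higher, a median of -1.08 (gap -0.99), medians by complex of -1.09, -1.73, -1.59, -1.07 and -1.03, and NDUFS1 at -0.36, COX7C at -0.25, ATP5F1E at -0.86 and COX6B2 at 0.84. Depth limits COX6B2, which had 15 to 25.1 counts per library.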
